A study of Mus musculus with 2 samples.

Results

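Plasma carriers are proteins that the liver releases into blood, where they hold hormones, vitamins and other small ligands. The genes were chosen by name: albumin (Alb), alpha-fetoprotein (Afp), transthyretin (Ttr), the retinol-binding protein Rbp4, the vitamin D-binding protein Gc, the alpha-1-microglobulin and bikunin precursor Ambp, the fetuins Ahsg and Fetub, and the major urinary proteins Mup3 and Mup5. Each was read from the probe sets that the platform annotation assigns to that gene alone. Of these 10 genes, 8 had such a probe set and 10 probe sets in all, of the 8251 genes so named on the array. Gc and Fetub were not analysed here.

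Mouse RNA was hybridised to 2 single-colour oligonucleotide arrays, which form 1 group. Both are titled liver and carry total RNA bought from Clontech under 1 catalogue number, but their source field reads spleen. No treatment, strain, sex, age or number of animals was found in the labels, and nothing says that the samples came from separate animals. The spread between the arrays may thus be technical, and with a single group no test between conditions was possible. All values are signal intensities in arbitrary units, given for replicate 1 and then for replicate 2.

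Most lipophilic hormones and vitamins travel in blood bound to protein, which keeps them soluble and slows their loss through the kidney. Albumin binds fatty acids, bilirubin and many drugs with broad specificity, while transthyretin carries thyroxine and forms a complex with retinol-loaded Rbp4. Rbp4, alpha-1-microglobulin and the major urinary proteins are lipocalins, small barrel-shaped proteins with an inner ligand pocket. Albumin, alpha-fetoprotein, afamin and Gc are related by descent and make up the albumin family.

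A background threshold was set on each array at the 95th percentile of 91 genes of brain, pituitary, testis, retina, lens and striated muscle, which fell at 484.4 and 523.8. Of all 8251 genes, 2331 (28.3%) lay above it on both arrays, and 4 of the 91 did. The tissue label was checked against markers. All 11 hepatocyte markers lay above the threshold, from 6018 for Fgb on replicate 1 to 69535 for Apoa1 on replicate 2, and their signals summed to 352784 and 381782. Of the 12 measured lymphoid and spleen markers 0 did, and their signals summed to 1069 and 1210. The brightest of them, Cd79a of the B cell receptor, gave 450.3 and 333.4. Of the Kupffer cell markers 6 of 9 lay above the threshold, of the endothelial 1 of 8, of the stellate cell 2 of 7, of the bile duct 0 of 3 and of the fetal liver and red cell precursor markers 1 of 6.

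Carrier genes were bright on both arrays with a single exception. Above the threshold on both arrays were 7 of the 8 measured carriers, against 28.3% of all genes, and the exception was Afp. The lowest signal among the 7 was 5099, that of Ttr on replicate 2. The median percentile of the 8 genes among all genes was 99.73, where that of all genes is 50. It was 99.72 on replicate 1 and 99.75 on replicate 2, and 6 of the 8 genes were among the 50 brightest. A percentile places a probe set within the signals of the array and is no measure of transcript number, because probes differ in how strongly they bind. In RNA of a whole tissue, fewer cells of a type and less RNA per cell cannot be told apart.

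**Figure D1:**
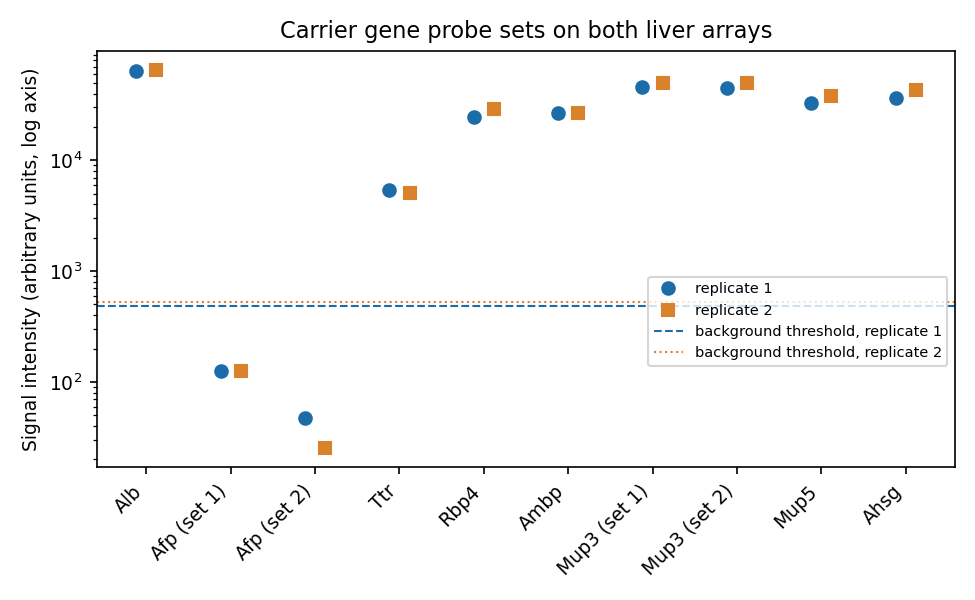
Signal intensity of each carrier gene probe set (log axis, arbitrary units) on replicate 1 (circles) and replicate 2 (squares), with the background threshold of each array as a line at 484.4 and 523.8. Both Afp sets lie below the lines and all other sets lie above them, from 5099 upward.

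Members of the albumin family stood on both sides of the threshold. Alb, the main protein of plasma, gave 64627 on replicate 1 and 65800 on replicate 2, a mean of 65213 ± 829.6 (SD, n = 2). Its single probe set was the brightest of all non-control sets on replicate 1 and number 4 on replicate 2. Afp, the fetal counterpart of albumin that is silenced in the liver after birth, had 2 probe sets. The brighter gave 125.7 and 124.6, a mean of 125.2 ± 0.778 (SD, n = 2), at the 37.0th percentile of genes. The other gave 47.1 and 25.2, a mean of 36.2 ± 15.5 (SD, n = 2). Neither Afp set was above background on either array, and Afp is described as not above background rather than absent. Afm, afamin, a vitamin E-binding member of the family, gave 2721 and 2597 and was above background.

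Alb, Afp and Afm stand next to each other, in that order, among the protein-coding genes of the RefSeq table of assembly GRCm38.p6. On the other side of Alb lie Ankrd17, at 263.1 and 219.3, and Cox18, a factor of mitochondrial assembly, at 2241 and 2137. Within this run of neighbours Alb, Afm and Cox18 were thus above background while Afp and Ankrd17 were not. Because Alb and Afp are neighbours of common descent on opposite sides of the threshold, the 250 bases before the start site of each are shown, with those of Ahsg as a carrier from outside the family. They are RefSeq sequences of build GRCm38.p6, read 5′ to 3′ on the plus strand: chr5:90460620-90460869 for Alb, chr5:90490464-90490713 for Afp and chr16:22891765-22892014 for Ahsg. Capitals mark matches to the motifs described next.
Alb: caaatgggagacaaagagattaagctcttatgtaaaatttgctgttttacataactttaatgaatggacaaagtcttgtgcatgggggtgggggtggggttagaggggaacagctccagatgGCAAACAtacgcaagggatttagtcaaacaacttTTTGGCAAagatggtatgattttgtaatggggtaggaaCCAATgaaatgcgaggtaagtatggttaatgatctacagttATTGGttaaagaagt
Afp: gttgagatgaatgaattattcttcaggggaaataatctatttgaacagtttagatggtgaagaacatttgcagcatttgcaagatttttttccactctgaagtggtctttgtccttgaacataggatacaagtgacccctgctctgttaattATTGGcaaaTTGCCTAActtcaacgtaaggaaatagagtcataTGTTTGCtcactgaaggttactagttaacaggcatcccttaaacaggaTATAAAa
Ahsg: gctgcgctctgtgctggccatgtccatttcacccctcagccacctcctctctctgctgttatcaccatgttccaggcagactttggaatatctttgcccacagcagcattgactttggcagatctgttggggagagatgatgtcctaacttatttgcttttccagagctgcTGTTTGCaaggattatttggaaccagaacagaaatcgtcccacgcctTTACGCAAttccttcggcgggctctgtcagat

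Motifs were searched on both strands in these 250 bases, and the choice of motifs was made with the sequences in view. The letters were TGTTTGC for the FOXA factors, TTGCNNAA for the C/EBP factors, CAAAGTCC for HNF4, CCAAT for the CCAAT box and TATAAA for the TATA box. The promoters of Alb and Afp both held the FOXA letters, the C/EBP letters and CCAAT. The CCAAT letters lay at -56 to -52 and again at -15 to -11 in Alb, and at -98 to -94 in Afp. In Alb the FOXA match lay at -128 to -122 and the C/EBP match at -94 to -87 from the RefSeq start site. In Afp they lay at -55 to -49 and at -89 to -82. Within the 250 bases searched, Afp alone of the pair had TATAAA, at -7 to -2. Bases after the RefSeq start site were not searched, so a match there in either gene would be missed. The sequence before Ahsg held the FOXA letters at -79 to -73 and the C/EBP letters at -32 to -25. No 2 matches overlapped in the sequences searched. A match is a description of letters and not evidence of a bound site.

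The same letters were counted in all promoters of the table. Among the 32851 promoters of the same length in the table, TGTTTGC was found in 4.30%, TTGCNNAA in 9.56%, CCAAT in 33.8% and TATAAA in 12.4%. The table held 7 promoters of 6 carriers that were searched: 1 each of Alb, Afp, Ambp, Ahsg and Mup3 and 2 of Rbp4. TGTTTGC was found in 4 of the 7, TTGCNNAA in 4, CCAAT in 4 and TATAAA in 2. CAAAGTCC was in 0 of the 7 and in 1.20% of all promoters. Because the motifs were chosen with carrier sequences in view, these counts are no test against the shares of all promoters. The window before Mup3 held none of the 5 motifs as spelled. The 2 start sites of Rbp4 differed in base composition, with 40.8% and 70.8% G and C against a median of 52.4% over all promoters.

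**Figure D2:**
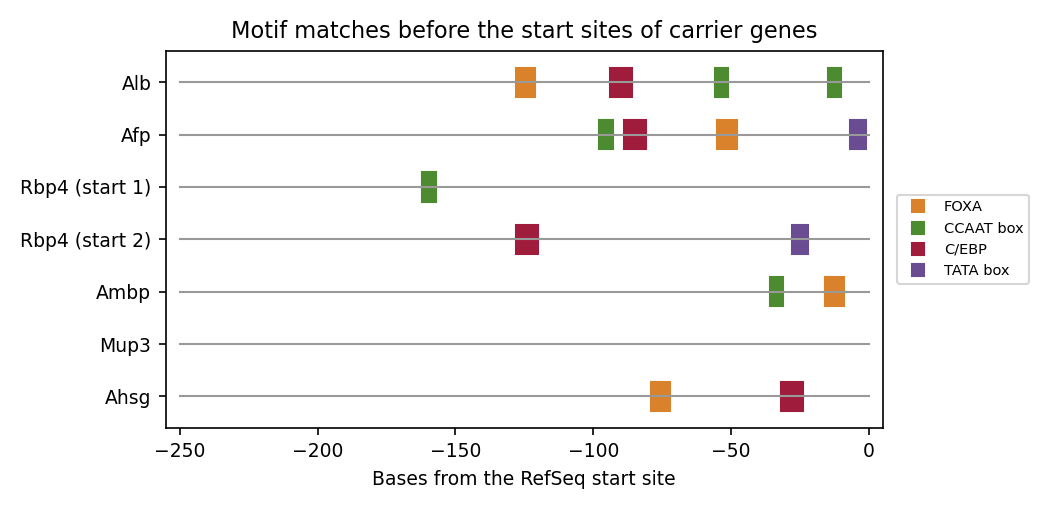
Positions of motif matches (coloured boxes) in the 250 bases before each RefSeq start site of 6 carrier genes, with distance from the start site in bases on the horizontal axis. Alb and Afp each carry a FOXA, a C/EBP and a CCAAT match in a different order, and Mup3 carries no match.

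Genes of the factors that these motifs are named for were measured in part. In a list of 22 measured transcription factor genes tied to albumin and alpha-fetoprotein control, 14 were above background on both arrays, against 28.3% of all genes, and the median percentile was 76.1. The brightest were Cebpa and Cebpb, C/EBP factors of hepatocytes, at 9564 and 10542 and at 5489 and 5971, and the nuclear receptor Nr1i3 at 3765 and 4402. Hnf4a, a master regulator of the hepatocyte, gave 1454 and 1602. Of the FOXA genes, Foxa3 (1021 and 798.5) and Foxa2 (722.8 and 645.5) were above background and Foxa1 (233.5 and 257) was not. Zbtb20, a repressor of Afp in the adult liver, gave 507.1 and 584.8 and so stood just above the threshold on both arrays. The lowest of the list was the nuclear receptor Nr2f1 at 20.3 and 3.8. Zhx2 was not analysed here. The FOXA genes and Zbtb20 were named after their values were seen.

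Partners that recycle or take up albumin were measured in part. B2m, the light chain of the neonatal Fc receptor that rescues albumin from breakdown and also of class I antigen-presenting molecules, gave 15526 and 17162. Fcgrt, the heavy chain of that receptor, gave 163.9 and 179.1. Lrp2 and Cubn, the endocytic receptors that reclaim albumin in the kidney, gave 126.9 and 102.1 and 126.1 and 116.2. B2m was the 1 gene above background of the 7 measured (14.3%, against 28.3% of all genes). The secreted matrix protein Sparc, which binds albumin, gave 241.8 and 317.7, and the lowest was Calr, a chaperone of the endoplasmic reticulum, at 16.4 and 28.4. Each of B2m, Fcgrt, Lrp2 and Calr was read from a single probe set.

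The carriers of thyroxine and retinol were both above background. Ttr gave 5372 on replicate 1 and 5099 on replicate 2, a mean of 5235 ± 192.6 (SD, n = 2), at the 96.6th percentile of genes. Rbp4, which carries retinol from the liver to other tissues, gave 24562 and 28975, a mean of 26769 ± 3121 (SD, n = 2), at the 99.6th percentile. Each was read from 1 probe set. None of the 3 nearest protein-coding genes on either side of Rbp4 was measured. Next to Ttr, Dsg2, a desmosomal cadherin, gave 1322 and 1700, and B4galt6, a glycosphingolipid enzyme, gave 17.5 and 124.7.

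The enzymes and receptors that handle retinol around Rbp4 were above background in 10 of 22 measured genes, against 28.3% of all genes, with a median percentile of 59.5. The brightest were Aldh1a1 (22681 and 25503) and Adh1 (22498 and 23829), dehydrogenases that oxidise retinal and retinol, and the carboxylesterase Ces1d (13550 and 14609). The other set of Aldh1a1 gave 125.3 and 80.8, below the threshold. Stra6, the cell surface receptor for Rbp4, was the lowest of the list at 18.7 and 10.9. Of the nuclear receptors of retinoids, Rxra gave 875.4 and 1209 and Rxrb 852.4 and 1178. Rara, Rarg and Rxrg, each read from a single probe set, were not above background. The values of the nuclear receptors were seen before they were named. Lrat, which esterifies retinol inside cells, was not analysed here.

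A list around the thyroid hormone carried by transthyretin held its enzymes and receptors, genes that respond to it and genes of the thyroid gland. Of its 9 measured genes 3 were above background (33.3%), near the 28.3% of all genes. They were Thrsp, a thyroid hormone-responsive gene of fat synthesis (8689 and 7932), the malic enzyme Me1 (1160 and 1015) and the receptor Thra (565.8 and 593.4). The other set of Thra gave 18.7 and 113.3, below the threshold on both arrays. Dio1, the deiodinase that activates thyroxine in liver, gave 160.1 and 90.1 from its single probe set. The lowest was Tshr, the receptor for thyrotropin of the thyroid gland, at 4.4 and 6.7. Serpina7, thyroxine-binding globulin, was not analysed here. The corticosteroid carrier Serpina6 had 2 probe sets, the brighter at 21684 and 20718 and the dimmer at 1018 and 1306.

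The vitamin D-binding carrier Gc was not analysed here, but genes of its ligand were. Of 8 measured vitamin D genes, Rxra and Dhcr7, the enzyme that turns the vitamin D precursor into cholesterol (521.8 and 574.4), were above background on both arrays. Dab2, an adaptor of endocytosis, gave 232.7 and 192.3. Vdr, the vitamin D receptor, gave 24 and 95 in its brighter set, and Cyp24a1, which degrades the hormone, was the lowest at 37.6 and 32.9. The share of 25% lies near the 28.3% of all genes.

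The lipocalin carriers were read from bright probe sets. Ambp, whose precursor is cut into the haem- and radical-binding alpha-1-microglobulin and the protease inhibitor bikunin, gave 26949 and 26874, a mean of 26912 ± 52.5 (SD, n = 2). The ratio between the arrays was 1.003 for this set. Mup3, a pheromone carrier released through urine, had 2 sets at 45944 and 50196 and at 44555 and 50005. Their means were 48070 ± 3007 and 47280 ± 3854 (SD, n = 2). Mup5 gave 32789 and 37807, a mean of 35298 ± 3548 (SD, n = 2). On both arrays the Mup3 and Mup5 signals stood within the 25 brightest non-control sets.

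The 3 probe sets of Mup3 and Mup5 all carry the suffix f, the maker's mark for sets whose probes match several members of a gene family. The Mup genes are a cluster of near-identical copies, so this signal cannot be assigned to 1 copy. In RefSeq order Mup20 lies between Mup5 and Mup3 and Mup21 follows Mup3, and neither was measured with a set of its own. The brightest and dimmest set of Mup3 differed by a log2 of 0.02, against a median of 2.93 over the 754 genes above background with more than 1 set. The 2 sets of Afp differed by a log2 of 1.86, against a median of 2.14 over the 2073 genes with more than 1 set. When every set with a suffix letter was left out, Mup3 and Mup5 had no value, and 5 of the 6 carriers left were above background.

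Other lipocalins stood on both sides of the threshold. Of 15 measured lipocalin genes 10 were above background, and 6 of the 11 that are not carriers named above were, against 28.3% of all genes. The lowest was Apod, apolipoprotein D, at 8.0 and 16.4. Among genes close to Ambp on chromosome 4 lies Orm1, an acute phase lipocalin that binds drugs, the 3rd protein-coding gene away, at 6198 and 6354. The heavy chains that are joined to bikunin were above background, with Itih3 at 13639 and 14552, Itih2 at 12134 and 12799 and Itih1 at 3200 and 3484. Their relative Itih4, which carries no bikunin, gave 11204 and 11852. They belong to a list of 9 measured genes of which 7 were above background, against the same 28.3%. The list was led by the antitrypsin genes Serpina1c (62277 and 68150), Serpina1b (55607 and 61381) and Serpina1e (51569 and 55839), near-identical copies of one another. These values come from sets of suffix f and cannot be assigned to a single copy. Serpina1c also had a set without suffix, at 53319 and 57318. Without suffixed sets and with the threshold recomputed, 5 genes of the list were above background. The share of all genes was not counted there. The lowest of the list was Tnfaip6, which transfers the heavy chains to hyaluronan, at 2.1 and 24.

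Ahsg, fetuin A, carries calcium phosphate and binds the insulin receptor. Its single set gave 36521 on replicate 1 and 42934 on replicate 2, a mean of 39727 ± 4534 (SD, n = 2), at the 99.8th percentile of genes. In RefSeq order Fetub, Hrg, Kng2 and Kng1 follow Ahsg on chromosome 16. Hrg, histidine-rich glycoprotein, gave 8687 and 8136, and Kng1, kininogen, gave 29269 and 29906. All 3 measured genes of this run of cystatin relatives were above background. So was Dnajb11, a chaperone of the endoplasmic reticulum on the other side of Ahsg, at 584.2 and 586. Of the 6 measured genes of the cystatin list 5 were above background, against 28.3% of all genes, and the lowest was Cst7 of leukocytes at 32.1 and 28.4.

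**Figure D3:**
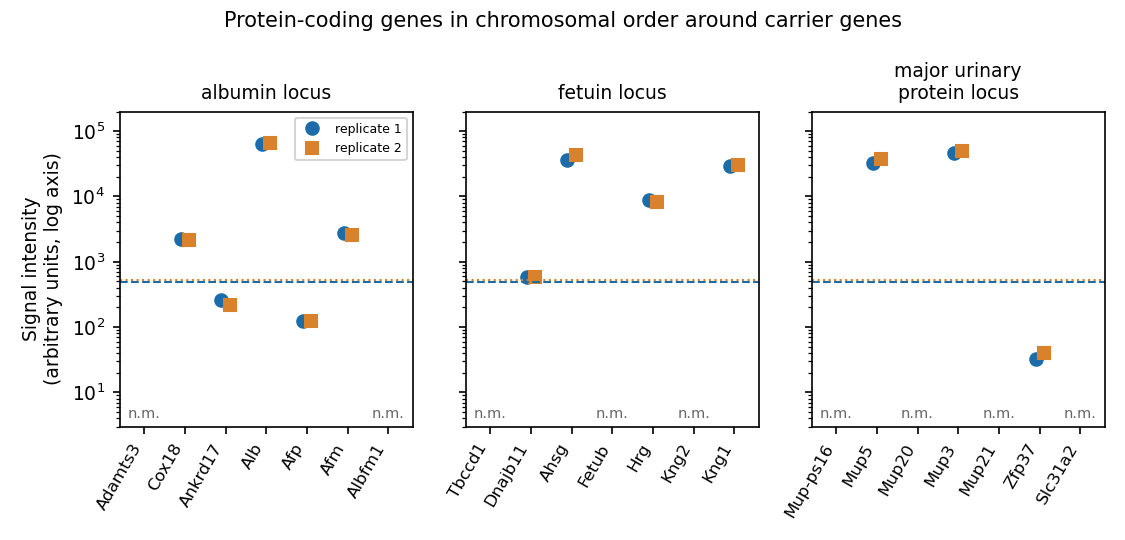
Signal intensity (log axis, arbitrary units) of consecutive protein-coding genes around Alb, Fetub and Mup3 on replicate 1 (circles) and replicate 2 (squares), with n.m. where a gene had no probe set of its own. Alb and Afm lie above the threshold lines with Afp between them below, and Ahsg, Hrg and Kng1 all lie above.

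Receptors and partners of fetuin were measured in part. Asgr1, a liver lectin that clears glycoproteins, gave 8470 and 8826 in its brighter set and 82.9 and 40.3 in the other. Its partner Asgr2 gave 908.1 and 751.8. Irs2, an adaptor of the insulin receptor, gave 393.6 and 502.3. These were the brightest of 9 measured genes, of which 2 (22.2%) were above background, near the 28.3% of all genes. The lowest was the protease Mep1a at 20.2 and 8.6. Insr, the insulin receptor, gave 113.3 and 51.9 from its single probe set and was not above background. Insr was named after its value was seen.

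Of the other plasma carriers measured, 13 of 16 (81.3%) were above background, against 28.3% of all genes. Apoa1, the main protein of high-density lipoprotein, gave 60573 and 69535, the haemoglobin scavenger Hp 41136 and 46160, and the haem carrier Hpx 36092 and 37956. Shbg, a carrier of sex steroids, gave 269.3 and 235.7 and was not above background, and Apod was the lowest. Shbg was named after its value was seen.

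Mup genes respond to growth hormone and are known to be higher in male than in female mouse liver. In the growth hormone list 5 of 15 measured genes (33.3%) were above background, near the 28.3% of all genes, led by Igf1 (12559 and 13783), Ghr, the growth hormone receptor (3133 and 3037), and Hnf4a. The other set of Ghr gave 923.7 and 906.1. Of the STAT5 factors that pass the signal to the nucleus, Stat5b gave 63.4 and 197.1. Stat5a gave 684 and 799.6 in its brighter set, was above background and was named after its value was seen. The lowest of the list was the glucocorticoid receptor Nr3c1 at 56.9 and 47.2, from its single probe set. Of 11 measured male-biased genes 10 were above background, and 8 of the 9 other than Mup3 and Mup5, among them Serpina1e as given above, which like the Mup genes was read from a set of suffix f. The share over all genes was 28.3% with all sets. When suffixed sets were left out and the threshold recomputed, Serpina1e, Mup3 and Mup5 had no value, and 7 genes of the list were above background. The share over all genes was not counted in that setting, so the 7 cannot be set against it. With all sets, the exception and lowest was the elongase Elovl3 at 107.6 and 130.8. Of 10 measured female-biased genes 4 were above background, against 28.3% of all genes, led by the cytochrome P450 gene Cyp2b10 (7092 and 6998), the sulfotransferase Sult2a2 (4797 and 4783) and Cyp2b9 (944.6 and 1040). The lowest was Sult3a1 at 35.8 and 4.2.

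**Figure D4:**
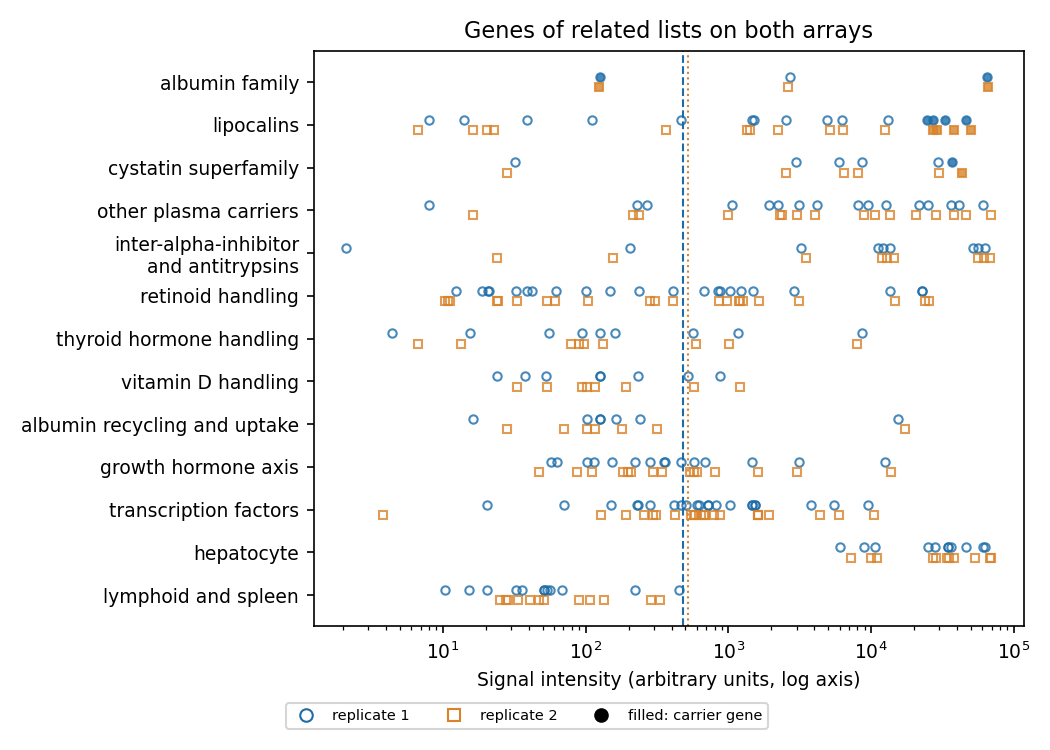
Signal intensity (log axis, arbitrary units) of every measured gene of 13 lists on replicate 1 (circles) and replicate 2 (squares), with filled symbols for carrier genes and the thresholds as vertical lines. Hepatocyte markers lie at 6018 and above, lymphoid and spleen markers at 450.3 and below, and carrier genes other than Afp at 24562 and above. Ttr belongs to none of the lists and is not drawn.

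The arrays were compared for each carrier set. None of the 8 carrier sets in the brighter 50% of probe sets differed over 2-fold, where 2.09% of the 6211 sets there did. All 8 lay in the brightest of 10 signal bins, where 0.161% of 1243 sets did. Differences are log2 values of replicate 2 minus replicate 1, from which the median over the brighter sets, -0.01, was removed. They were 0.24 for Rbp4, 0.24 for Ahsg, 0.21 for Mup5, 0.17 and 0.13 for Mup3, 0.03 for Alb, 0.00 for Ambp and -0.07 for Ttr. The median over all 10 carrier sets was 0.08, and under quantile normalization it turned to -0.0026. Each side of the difference is a single array, so none of these values could be checked against replicates.

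Rbp4 and Ahsg gave the widest gaps of the bright carriers, a factor of 1.18 each. Of the 200 probe sets nearest in signal to Rbp4, 2.5% differed more, and of those nearest to Ahsg 3% did. For Alb 82.5% differed more and for Ambp 98%. The SD of the difference among the 200 sets nearest to each of Alb, Rbp4, Ambp, Ahsg, Mup3 and Mup5 was 0.10. These carriers ranked no lower than number 45 of the non-control sets on either array. Their nearest 200 sets were therefore largely the same sets and mostly dimmer than the carrier. Bright sets as a whole ran higher on replicate 2: 97 of the 125 sets in the brightest 1% did (77.6%), against 48.9% of the brighter 50% of sets, and 6 of the 7 carrier sets in that top group did. Under quantile normalization the values were 0.17 for Rbp4, 0.09 for Ahsg and 0.12 for Mup5, while Alb at -0.13 and both Mup3 sets at -0.0026 turned lower on replicate 2. The direction of the Alb and Mup3 differences thus flips with the scaling. Ambp was lower on replicate 2 as deposited and under quantile normalization (-0.08) and near 0 with the median removed.

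At the dim end the arrays differed more. The second Afp set fell from 47.1 to 25.2, a log2 difference of -0.90, and 45% of the 200 sets nearest to it in signal differed more. The SD there was 1.31. The brighter Afp set differed by -0.01, turning to 0.09 under quantile normalization, where the nearest 200 sets had an SD of 0.65.

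**Figure D5:**
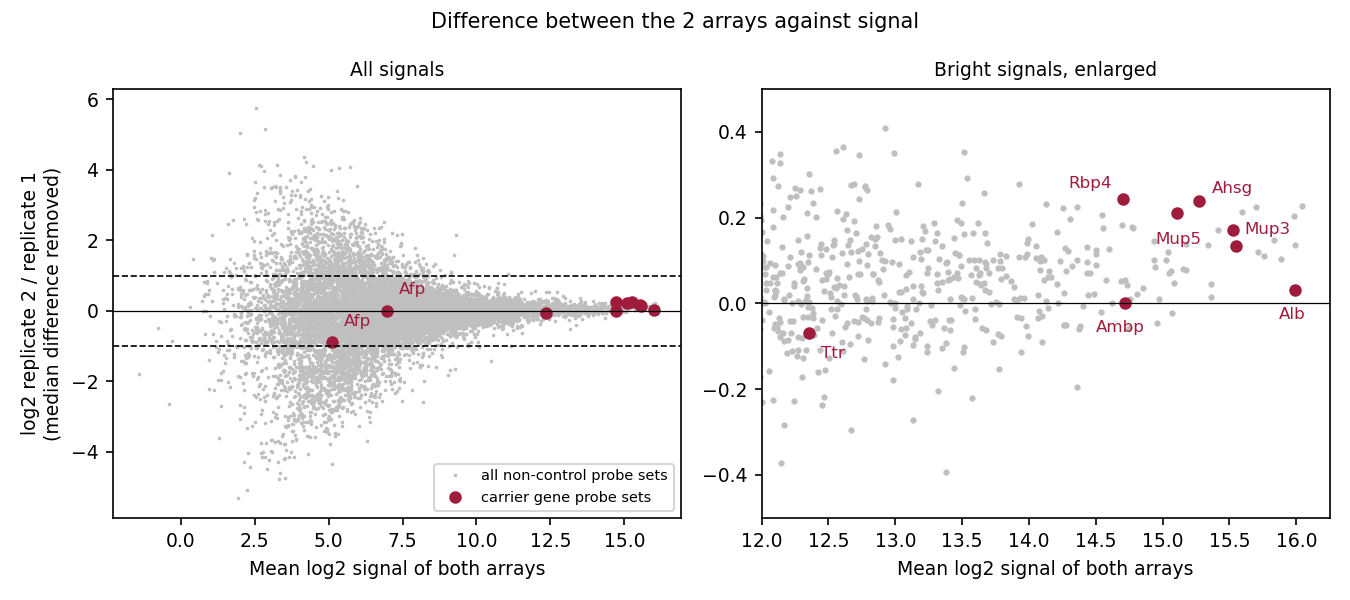
Difference between the arrays (log2 of replicate 2 over replicate 1 after removing the median) against mean log2 signal for all non-control probe sets (grey) and carrier sets (red), with dashed lines at 2-fold and an enlarged view of bright signals. Bright carriers lie between -0.07 and 0.24, and the dimmer Afp set lies at -0.90 within a wide cloud.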

How the data were processed

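Values were the submitters' processed signal intensities, 1 per probe set and array. Per the labels, the RNA was total RNA; how probes were summarised and scaled, and with which software, is not given in the sources used here. The deposited intensity values were all above 0 on a linear scale, with medians of 163.2 and 157.7 and highest values of 64627 and 72959. Of 12488 probe sets, 66 were array controls. The platform annotation named 1 gene for 10855 sets, several for 396 and none for 1237. Scanner files were not used here. Arrays give no count depth, and having 2 of them limits the precision.

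A gene was read from its set with the highest mean log2 signal, and every set of a carrier is reported. Of all sets, 16 had identical values on both arrays. Percentiles were ranks among 8251 genes. The 91 genes behind the background threshold (95th percentile) were those measured of 101 listed. Array differences were taken on log2 values after removing the median of the brighter 50% of non-control sets. The limit was 2-fold. Neighbours were read from protein-coding genes of the RefSeq table of GRCm38.p6, through gene identifiers, where 8092 of 8251 matched. Promoters came from the RefSeq table of the same build, and only the 250 bases before the start site were searched.

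Members, gene lists, motifs and the threshold were chosen with earlier results of these data known. The named genes are all carriers, from each list described the 3 highest genes and the lowest, and fixed partners of the carriers; neighbours were taken by position. With 1 group no test was run. No likeness of pattern between genes was measured over 2 arrays. The shift between arrays, the recovery of changed bright sets, the rank of the brightest gene and the quantile normalization were tested on simulated data. The simulated noise was the same at all signals, unlike that of these arrays. The threshold, list counts, neighbours and motif search were not tested in this way. Alternatives were quantile normalization, no shift, log2(value + 32), the mean of a gene's sets, leaving out suffixed sets, other thresholds, a 1.5-fold limit and each array alone. Tools were pandas 2.3.3 and numpy 2.4.6 under Python 3.11.15, with figures by matplotlib 3.10.9.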

Additional observations from a re-analysis of the deposited data

How the results depend on the processing

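The count of 7 carriers above background held under each threshold, each array alone, quantile normalization and the mean of a gene's sets, and was 5 without suffixed sets, where Mup3 and Mup5 have no value. The share of 28.3% of all genes belongs to the main threshold. It was not counted under the alternatives, so neither this count nor the list counts below can be set against it there. The median percentile moved from 99.73 to 99.79 with the mean of a gene's sets and to 99.76 among all probe sets. The median carrier difference turned to -0.0026 under quantile normalization. With a 1.5-fold limit 1 of the 10 carrier sets, the dimmer one of Afp, passed, against 9.16% of the 6211 brighter sets. That Afp set is not among the brighter sets, and in its signal bin 41.8% of all sets passed even 2-fold. Of 184 list counts under the alternatives, 157 stayed within 1.5 times and 27 did not. With the threshold at the highest other-tissue gene, transcription factors went from 14 to 7, retinoid genes from 10 to 6, growth hormone genes from 5 to 3, thyroid hormone genes from 3 to 1, vitamin D genes from 2 to 0, fetuin partners from 2 to 1, female-biased genes from 4 to 2 and Kupffer cell markers from 6 to 3. With the median of all probe sets as threshold, growth hormone genes went to 10, female-biased genes to 7, albumin recycling genes from 1 to 3, endothelial markers from 1 to 6, stellate cell markers from 2 to 5, fetal liver and red cell markers from 1 to 2 and lymphoid markers from 0 to 2. The threshold was recomputed from the genes left under each of the next alternatives. Without suffixed sets, fetal liver and red cell markers went to 0, endothelial markers to 3, lymphoid markers to 1, albumin recycling genes to 2 and growth hormone genes to 8. With the mean of a gene's sets, growth hormone genes went to 8, lymphoid markers to 1 and endothelial markers to 2. Endothelial markers were also 2 without replicate 2 and at the 90th percentile, haem and bilirubin genes went from 2 to 1 at the highest other-tissue gene, and vitamin transport genes from 2 to 4 at the median. Afp as the mean of its sets gave 66.5. The spread between the Mup3 sets has no value without suffixed sets. No paired analysis was possible because there is 1 group. Background correction could not be repeated from summarised values, which limits what dim sets such as those of Afp can show.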
